A study of Mus musculus with 13 samples.

Results

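The sarcomeric myosin heavy chains are the motor proteins of the thick filament in striated muscle, and mouse back skin carries them because a thin sheet of skeletal muscle, the panniculus carnosus, lies under the dermis. The 8 chains followed here (Myh1, Myh2, Myh3, Myh4, Myh6, Myh7, Myh8 and Myh13) were taken by symbol from a count table of 49315 genes, and all 8 were found. Each gene encodes a head that splits ATP and pulls on actin and a long coiled-coil tail that packs into the filament. Muscle fibers are classed by the chain they use. Developing fibers use embryonic Myh3 and neonatal Myh8, and both are replaced after birth by fast Myh2 (type IIA), Myh1 (type IIX) and Myh4 (type IIB) or by slow Myh7 (type I). Myh7 is also the beta-cardiac chain, Myh6 is the alpha-cardiac chain, and Myh13 is best known from the muscles that move the eye.

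The study asked what KCTD1 and KCTD15 do in skin. RNA-Seq counts of whole back skin at postnatal day 4 (P4) were compared between 3 WT mice and 3 littermates with floxed alleles of both genes and a Cre transgene (K14Cre+Kctd1 fl/flKctd15 fl/fl, labelled DKO). The keratin 14 promoter drives this Cre in keratinocytes, so muscle fibers of the DKO mice were not the cells targeted. The labels list 1 library for each animal and do not state sex.

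The 6 libraries held 11263863 to 17643043 counts, and a floor of 3 counts corresponded to 0.17 to 0.266 CPM (counts scaled to the library's total). The normalized count of Kctd1 was 410.0 to 443.4 in WT and 506.1 to 985.0 in DKO, and that of Kctd15 was 735.9 to 763.1 in WT and 1130.5 to 1509.0 in DKO. Neither was lower in the libraries labelled DKO. These counts cover whole genes, not the deleted exons alone, and whole skin holds cells that the Cre does not reach, so they do not check the labels. In edgeR's quasi-likelihood test over 20168 genes, 14 genes passed a Benjamini-Hochberg adjusted p under 0.05 with a log2 fold change over 1 in either direction, which is 0.0694% of the genes tested. DESeq2 passed 154 of 19663 genes, or 0.783%. The summed level of 44 skeletal muscle genes outside the family was higher in all 3 DKO libraries and highest in DKO replicate 1. Chains are therefore also given relative to that sum, and some chain values and list medians are also given without that library. Other values can depend on it too, among them those of single genes outside the family. In bulk skin, fewer cells of a type and less RNA per cell cannot be told apart.

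Of the 8 chains, 6 lie in tandem on the plus strand of chromosome 11 (GRCm38), in the order Myh3, Myh2, Myh1, Myh4, Myh8 and Myh13. Myh8 spans chr11:67277124-67308634, Myh1 spans chr11:67200052-67224575 and Myh4 spans chr11:67238029-67260446. Myh6 and Myh7 are neighbours on the minus strand of chromosome 14, at chr14:54941981-54966927 and chr14:54970688-54994634. The coding sequences are alike, so how well reads tell the chains apart bears on every value. Over the aligned coding sequence Myh8 was identical to Myh1 at 89.2% of positions, to Myh2 at 89.1% and to Myh4 at 87.9%. The pairs Myh1 with Myh2 (91.0%) and Myh6 with Myh7 (91.6%) were the closest, and Myh3 matched Myh8 at 80.8%. Of all 150-base windows of the longest coding transcript of Myh8, 1.6% also occurred unchanged in another gene. The same share was 0.51% for Myh4, 3.59% for Myh2 and 6.22% for Myh1, whose shared windows lay mostly in the antisense gene Myhas. Counted bases outside the longest coding transcript, 47.8% of those of Myh8, were not searched. The longest stretch without a difference between Myh8 and Myh1 was 160 bases. The 60 aligned coding bases in which Myh8 differs most from the 3 adult fast chains show where reads can be told apart (GENCODE M21 transcripts, GRCm38). Capitals mark positions that are not the same in all 4 chains.
Myh8: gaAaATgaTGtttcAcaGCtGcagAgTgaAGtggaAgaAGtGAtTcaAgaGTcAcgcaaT
Myh1: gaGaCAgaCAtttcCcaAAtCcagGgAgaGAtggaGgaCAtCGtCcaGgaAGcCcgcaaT
Myh2: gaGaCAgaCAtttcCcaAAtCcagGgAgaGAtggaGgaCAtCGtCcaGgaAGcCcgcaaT
Myh4: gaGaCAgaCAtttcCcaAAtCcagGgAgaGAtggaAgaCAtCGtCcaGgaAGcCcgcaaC
Myh8 differs from each of the others at 23 of these 60 bases, while Myh1 and Myh2 are identical throughout. A read inside this stretch could separate Myh8 from the fast chains but not Myh1 from Myh2.

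Promoter sequence was read for the same 4 chains, because Myh8 and Myh1 are the most abundant of the 8 and differed in how they compared between the genotypes. In the 250 bases before the RefSeq start site (GRCm38.p6), Myh8, Myh1 and Myh4 each hold the 10 letters TTATTTATAG, which match the AT-rich site of the MEF2 factors, regulators of muscle genes. The first base of the match lies 99 bases before the start site in Myh8, 211 in Myh1 and 182 in Myh4. Of 32536 such mouse promoter windows searched on both strands, 548 (1.7%) hold a match to the MEF2 pattern that was searched. These exact letters, which were taken from Myh8, occur in 37 (0.11%). The 60 bases around the match are shown with the 10 letters in capitals, and for Myh2, which has no match, the capitals mark the closest 10 letters, which differ at 2 positions.
Myh8, chr11:67277000-67277059, plus strand: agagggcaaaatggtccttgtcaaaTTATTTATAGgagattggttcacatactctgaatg
Myh1, chr11:67199866-67199925, plus strand: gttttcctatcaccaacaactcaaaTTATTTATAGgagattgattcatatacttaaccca
Myh4, chr11:67237605-67237664, plus strand: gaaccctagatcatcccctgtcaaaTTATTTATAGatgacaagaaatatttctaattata
Myh2, chr11:67170834-67170893, plus strand: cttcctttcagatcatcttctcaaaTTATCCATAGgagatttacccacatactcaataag
The longest run shared by the Myh8 and Myh1 windows is 22 bases and contains the match, and that shared by Myh8 and Myh4 is 17 bases and also contains it. The letters TATAAA, which occur in 12.3% of the windows, overlap the match on the other strand. Separate copies begin 32 bases before the start site in Myh1 and 31 and 213 bases before it in Myh4. Myh8 has no separate copy. A match describes these letters only, and binding was not measured.

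Neonatal Myh8 was the most abundant chain and the one with the largest difference between the genotypes. It had 8017, 8768 and 8325 counts in WT replicates 1 to 3 and 24306, 12486 and 13024 counts in DKO replicates 1 to 3. After TMM normalization these were 8171.1, 7442.4 and 7122.1 in WT and 31951.2, 13772.9 and 12964.8 in DKO. All 3 DKO libraries lay above all 3 WT libraries, WT varied little, and DKO replicate 1 stood far above the other DKO libraries. The mean normalized count was 7578.5 ± 537.6 in WT and 19563 ± 10736.1 in DKO (SD, n = 3). The log2 fold change was 1.37 (SE 0.312), or 2.58-fold, which did not pass in edgeR (Benjamini-Hochberg adjusted p = 0.239, unadjusted p = 0.0015) and passed in DESeq2 (adjusted p = 0.000928). Without DKO replicate 1 the log2 fold change was 0.80, with an adjusted p of 0.0378 in edgeR but below the fold threshold, and DESeq2 then passed no member. Among the 2 WT and 2 DKO libraries whose titles share one number the log2 ratio of means was 0.78, and between the WT and DKO libraries that share the other it was 2.17.

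**Figure D1:**
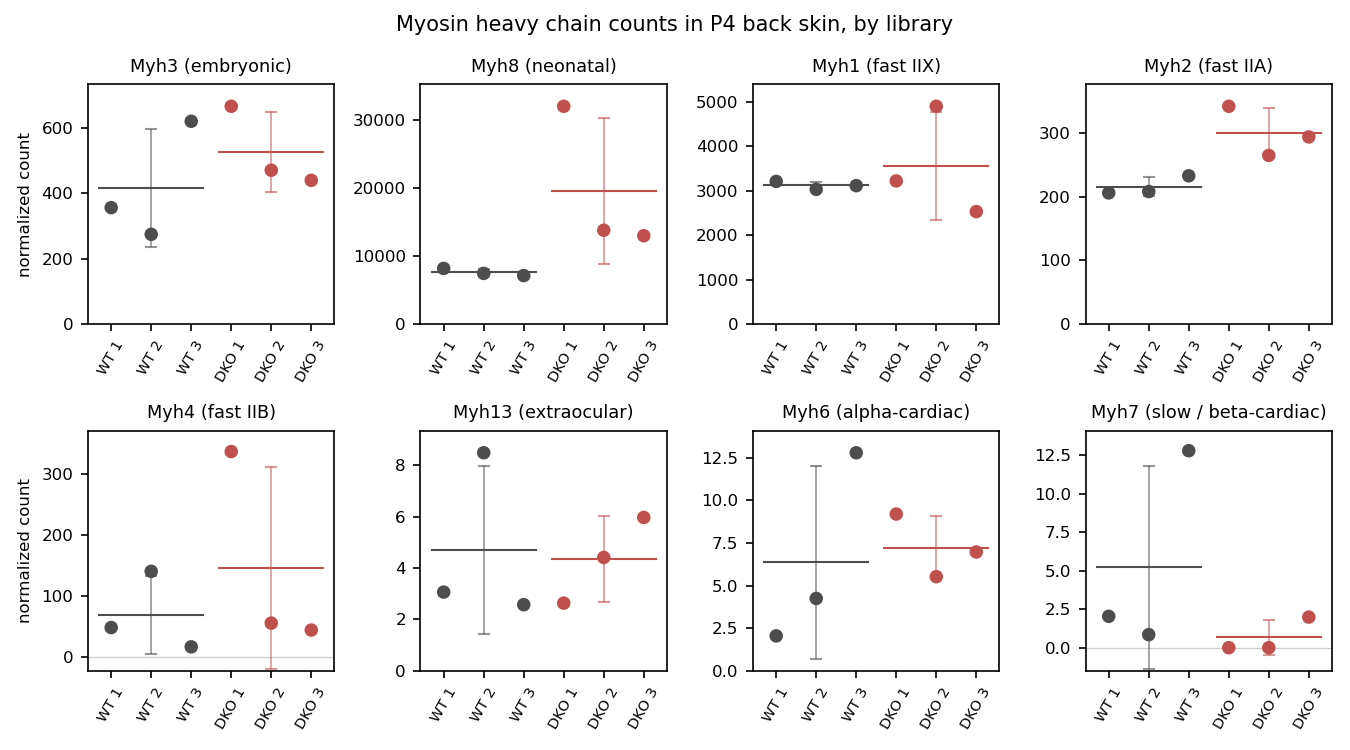
Normalized counts (TMM, y axis from 0 or just below it) of the 8 chains in each of the 6 P4 libraries (x axis, grey WT, red DKO), with a line at each group's mean and a bar of 1 SD. Myh8 and Myh2 are higher in every DKO library than in every WT library, while the groups overlap for the other 6 chains.

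Embryonic Myh3 overlapped between the genotypes. Its normalized count was 355.7, 274.2 and 619.4 in WT and 665.2, 469.9 and 439.0 in DKO. WT replicate 3 lay inside the DKO range and accounted for most of the WT spread. The log2 fold change was 0.33 (SE 0.287, edgeR with Benjamini-Hochberg adjusted p = 0.914), and it was 0.11 without DKO replicate 1.

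Myh1, the IIX chain and the most abundant adult fast chain, was nearly constant in WT at 3207.5, 3029.4 and 3112.3 normalized counts. In DKO it was 3218.0, 4896.5 and 2529.5, so that 1 DKO library lay below the WT libraries and 2 lay above them. The library with the most Myh8, DKO replicate 1, had a Myh1 count within 1% of the highest WT library. The log2 fold change was 0.19 (SE 0.211, edgeR with Benjamini-Hochberg adjusted p = 0.939), and it was -0.11 without DKO replicate 2.

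Myh2, the IIA chain, was low but separated the groups. It had 205.9, 208.0 and 232.7 normalized counts in WT and 341.8, 264.7 and 293.7 in DKO. The difference was small, with a log2 fold change of 0.48 (SE 0.161, edgeR with Benjamini-Hochberg adjusted p = 0.471, unadjusted p = 0.015). DESeq2 gave an adjusted p of 0.498. The antisense gene 9430073C21Rik overlaps Myh2, and its counts were 0, 3 and 1 in WT against 7, 4 and 13 in DKO. Whether the counting used strand is not stated, so reads from the overlap cannot be assigned to either gene with certainty. The same holds for Myhas, which overlaps Myh1, with counts of 14, 37 and 42 in WT against 41, 25 and 19 in DKO.

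Myh4, the IIB chain of the fastest fibers, varied more within each genotype than between them. Its normalized count was 47.9, 140.1 and 16.3 in WT and 336.5, 55.2 and 43.8 in DKO. The highest library exceeded the lowest 8.62-fold in WT and 7.68-fold in DKO. The log2 fold change was 1.06 (SE 0.84, edgeR with Benjamini-Hochberg adjusted p = 0.899), it turned to -0.49 without DKO replicate 1, and it was 2.17 without WT replicate 2. No direction can be given for Myh4.

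The slow, cardiac and extraocular chains were near the floor. The counts of Myh7 were 2, 1 and 15 in WT against 0, 0 and 2 in DKO. Those of Myh6 were 2, 5 and 15 in WT against 7, 5 and 7 in DKO, and those of Myh13 were 3, 10 and 3 in WT against 2, 4 and 6 in DKO. WT replicate 3 held the most Myh6 and the most Myh7. All 3 chains were removed by the filter on low counts, and a change in them was not detectable at this depth. The slow light chains Myl2 and Myl3 were as low. The light chain Myl6b was not, with 106, 97 and 147 counts in WT against 106, 123 and 73 in DKO. The counts of Myl2 were 1, 0 and 6 in WT against 0 in each DKO library, and those of Myl3 were 5, 7 and 5 in WT against 2, 2 and 5 in DKO.

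Of the 8 chains, 5 were tested, and all 5 had a positive log2 fold change, against 52.9% of all genes tested. No member passed in edgeR, where 0.0694% of all genes did (0.0397% with DKO higher). DESeq2 passed 1, Myh8, where 0.783% of all genes passed (0.498% with DKO higher). The unadjusted edgeR p was under 0.05 for 2 members, Myh8 and Myh2, and for 7.5% of all genes (4.96% with DKO higher). The genotypes did not overlap for the same 2 members, and for 13.2% of all genes (7.24% with DKO higher). Ranked by p among the 20168 genes, Myh8 stood at 126, Myh2 at 642 and Myh1 at 8528.

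Levels were compared between chains per kilobase of counted exon. Averaged over the 6 libraries the normalized count per kilobase was 1152.8 for Myh8, 524.5 for Myh1, 77.7 for Myh3, 36.1 for Myh2 and 17.7 for Myh4. It was 1.07 for Myh6, 0.732 for Myh13 and 0.344 for Myh7. Myh8 exceeded Myh1, and Myh1 exceeded Myh3, in every library, and Myh2 exceeded Myh4 in all but DKO replicate 1. The lengths bear on these levels. The counted length of Myh8, 11772 bases, includes 5623 bases (47.8%) outside its longest coding transcript, while Myh1 has 272 such bases (4.3%). With the coding transcript as the length, Myh8 still exceeded Myh1 in every library. Their mean shares of the summed chains were then 66.1% and 27.5% in WT and 79.1% and 16.6% in DKO. In DKO replicate 1 Myh2 and Myh4 then had shares of 0.944% and 0.94%, so their order there depends on the length.

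The summed level per kilobase of the 8 chains was 1295.6, 1208.9 and 1236.4 in WT and 3436.2, 2066.1 and 1622.7 in DKO, and the genotypes did not overlap. On the log2 scale the difference of means was 0.86 (exact two-sided permutation test, p = 0.1, the smallest that 3 against 3 libraries allow). The difference was 0.55 without DKO replicate 1 and 0.55 in the 4 libraries that share one number. Most of it was Myh8, since the sum without Myh8 differed by 0.21.

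The make-up of the sum was compared next. The developmental chains Myh3 and Myh8 together took 58.1%, 56.0% and 57.2% of the summed level in WT and 82.2%, 60.4% and 72.3% in DKO. The higher share was that of Myh8, with means of 51.6% in WT and 67.8% in DKO, while Myh3 had 5.52% in WT and 3.81% in DKO. The adult fast chains Myh1, Myh2 and Myh4 took 41.8%, 43.8% and 42.5% in WT and 17.8%, 39.5% and 27.5% in DKO. The WT libraries agreed closely, the DKO libraries were spread out, and for neither share did the genotypes overlap. DKO replicate 2 was nearest to WT and DKO replicate 1 was farthest. The developmental share averaged 57.1% ± 1.04 in WT and 71.6% ± 10.9 in DKO (SD, n = 3), a difference of 14.5 percentage points, or 9.24 without DKO replicate 1. The exact two-sided permutation p was 0.1, again the smallest possible. The adult fast share is nearly the remainder of the developmental share and is no separate result, and over all 6 libraries none of its 3 chains had a negative log2 fold change. With the length of the longest coding transcript in place of the counted length, the developmental share was 69.8% in WT and 81.4% in DKO. The slow and cardiac chains Myh6 and Myh7 took 0.13% in WT and 0.0554% in DKO (exact two-sided permutation p = 0.5).

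**Figure D2:**
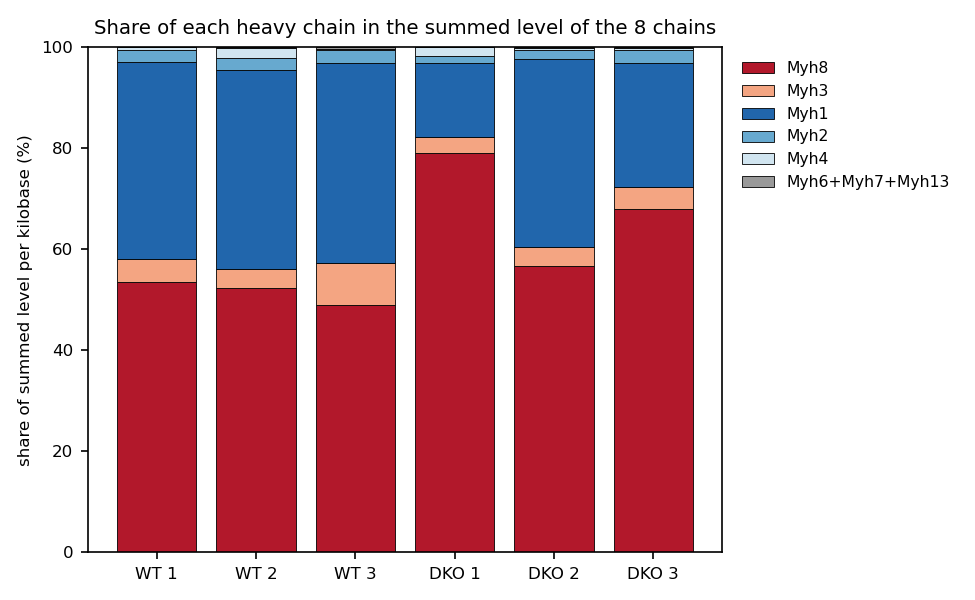
Share of each chain in the summed level per kilobase of the 8 chains (y axis, percent) in each P4 library (x axis). Myh8 takes 48.9% to 53.6% in WT and 56.6% to 79.0% in DKO, and Myh1 takes 39.0% to 39.6% in WT and 14.7% to 37.3% in DKO.

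The ratio of Myh8 to Myh1 per kilobase sets the most abundant chain against the next. It was 1.37, 1.33 and 1.23 in WT and 5.36, 1.52 and 2.77 in DKO, without overlap (exact two-sided permutation p = 0.1, the smallest possible). The ratio of Myh8 to embryonic Myh3 averaged 10.6 ± 4.17 in WT and 18.3 ± 5.53 in DKO (SD, n = 3), and its lowest DKO value, 15.1, lay above every WT value. The ratio of Myh3 to Myh1 overlapped, at 0.0949 to 0.209 in WT and 0.101 to 0.217 in DKO. The ratio of Myh8 to Myh2 was 21.4 ± 2.76 in WT and 38.3 ± 16.1 in DKO, without overlap, whereas that of Myh8 to Myh4 was 112.7 ± 100.8 in WT and 109.1 ± 53.8 in DKO (SD, n = 3) and overlapped (exact two-sided permutation p = 0.8). These ratios depend on the chains' lengths for their level but not for the comparison between libraries. The 7 ratios formed between chains were a chosen set, not all possible pairs. Of these, 3 did not overlap, all with Myh8 in the numerator. The Myh8 count itself did not overlap, so these 3 are not separate from that difference. The share of ratios without overlap over all genes was not computed.

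The 44 skeletal muscle genes outside the family, such as skeletal actin and the creatine kinase of muscle, were used as a scale for muscle RNA in each library. Their summed level per kilobase was 14811.7, 13126.5 and 14042.8 in WT and 43014.8, 25016.2 and 21962.1 in DKO, a ratio of means of 2.14. Of the 44 genes, 43 had a positive log2 fold change, none passed in edgeR, and 19 passed in DESeq2 with DKO higher (0.498% of all genes). An unadjusted edgeR p under 0.05 with DKO higher was found for 40 (4.96% of all genes). The genotypes did not overlap with DKO higher for 35 (7.24% of all genes). The DESeq2 calls numbered 0 without DKO replicate 1 and 12, 10 and 9 without WT replicates 1 to 3. Their median log2 fold change was 1.04, against 0.02 for all genes tested, and 0.58 without DKO replicate 1. Tnni2 (1.23), the inhibitory troponin of fast fibers, Des (1.30), the intermediate filament of muscle, and Actn2 (1.29), an actinin of the Z-disc, had the smallest p-values. The most abundant per kilobase were Acta1 (1.14), skeletal actin, Atp2a1 (1.19), the calcium pump of fast fibers, and Tnnt3 (1.07), a fast troponin. Over the 6 libraries Acta1 averaged 10385.9 per kilobase and Atp2a1 1387.4, so the sum rests largely on Acta1.

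Set against that sum, Myh8 overlapped between the genotypes, while Myh1, Myh2 and Myh3 were lower in DKO, as most genes were. Myh8 stood at 4.69%, 4.82% and 4.31% of the summed level of the 44 genes in WT and at 6.31%, 4.68% and 5.01% in DKO, with overlap. Myh1 stood at 3.41%, 3.63% and 3.49% in WT and at 1.18%, 3.08% and 1.81% in DKO, without overlap and lowest where muscle RNA was highest. Myh2 (0.195% to 0.232% in WT, 0.111% to 0.187% in DKO) and Myh3 (0.345% to 0.728% in WT, 0.255% to 0.33% in DKO) were also lower in every DKO library. By the same measure 76.6% of all genes were lower in DKO without overlap, and the sum itself stood higher in every DKO library, so that a level gene counts as lower. Among the 44 muscle genes, 9 were lower without overlap and 0 were higher. The summed chains relative to the 44 genes differed by -0.18 on the log2 scale (exact two-sided permutation p = 0.1, the smallest possible) and by -0.83 without Myh8. The first value was -0.05 with the longest coding transcript as the length of each chain and 0.01 with counts in place of counts per kilobase, so no direction is given for the whole family.

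**Figure D3:**
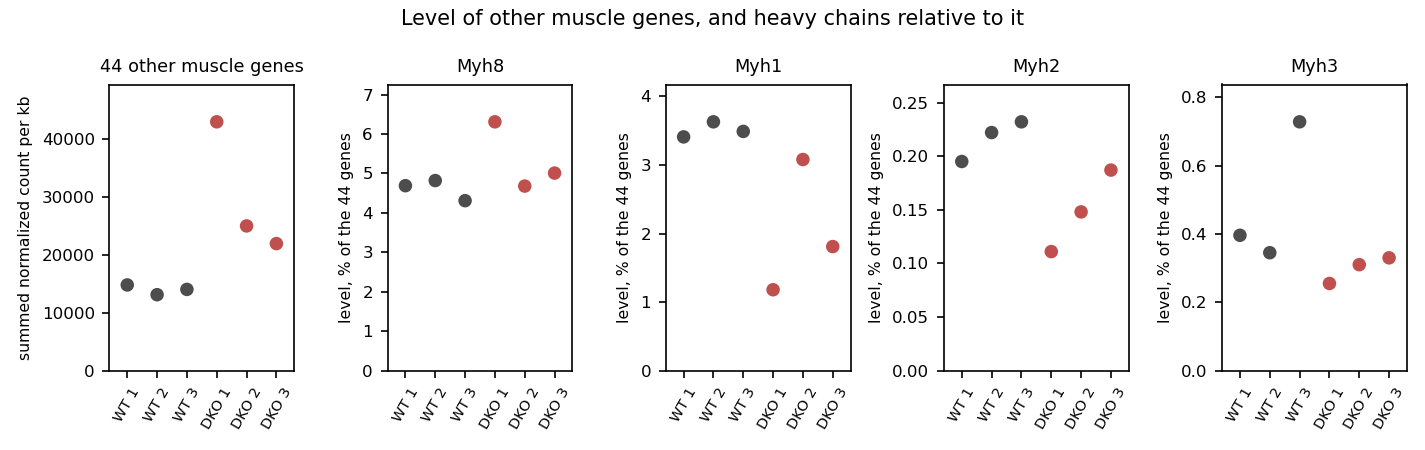
The left panel plots the summed normalized count per kilobase of 44 other skeletal muscle genes, and the other panels plot the level of a chain as a percent of that sum, by library (grey WT, red DKO). Myh8 stays between 4.31% and 6.31% and overlaps, and Myh1 lies at 3.41% to 3.63% in WT and 1.18% to 3.08% in DKO. By this measure 76.6% of all genes tested are lower in DKO without overlap.

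The partners of the heavy chains in the thick filament were counted next. Of 17 light chains, myosin-binding proteins, M-line proteins and light chain kinases, 14 were tested and 13 had a positive log2 fold change, with a median of 0.89. None passed in edgeR, and 11 had an unadjusted p under 0.05 with DKO higher (4.96% of all genes). The genotypes did not overlap with DKO higher for 10 (7.24% of all genes). DESeq2 passed 3 at the same fold threshold, all with DKO higher (0.498% of all genes). Without DKO replicate 1 the median was 0.54 and DESeq2 passed none, and it passed 2, 1 and 1 without WT replicates 1 to 3. The log2 fold changes of Myl6b (0.13) and Mybpc3 (0.00) were near 0. Mybpc2 (1.47, SE 0.339), the fast myosin-binding protein C, and the M-line proteins Myom1 (1.14, SE 0.29) and Myom2 (1.25, SE 0.32) had the smallest p-values and were those that passed in DESeq2. The normalized count of Mybpc2 was 199.8, 247.9 and 183.9 in WT and 963.6, 434.6 and 354.4 in DKO. This DKO order was that of Myh8, but Myom2 (1540.6, 619.9 and 647.0) did not follow it. The fast light chains Myl1 (0.91) and Mylpf (0.88) differed by more than the chain they pair with in adult IIX fibers, Myh1 (0.19). They differed by less than the most abundant chain here, Myh8 (1.37). The differences between those values were not tested.

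Of 8 genes for the folding and turnover of myosin or near them in muscle, 7 had a positive log2 fold change, with a median of 0.75. None passed in edgeR, and 4 had an unadjusted p under 0.05 with DKO higher (4.96% of all genes). DESeq2 passed 1 with DKO higher, Smyd1 (0.498% of all genes), and 0 when DKO replicate 1 or any 1 WT library was left out. Trim54 (1.27), a ligase of the sarcomere, Smyd1 (1.31), a methyltransferase needed for thick filament assembly, and Unc45b (0.90), a chaperone of the myosin head, had the smallest p-values. Hsp90aa1, a chaperone of all cells, was the exception at -0.16.

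All 15 genes listed as regulators of fiber type had a positive log2 fold change, with a median of 0.29. None passed in edgeR, and 4 had an unadjusted p under 0.05 with DKO higher (4.96% of all genes). The genotypes did not overlap with DKO higher for 3 (7.24% of all genes). DESeq2 passed 1 with DKO higher, Vgll2 (0.498% of all genes), and 0 when DKO replicate 1 or any 1 WT library was left out. The normalized count of Vgll2, a cofactor of the TEAD factors in muscle, was 22.4, 22.9 and 30.8 in WT and 105.2, 54.1 and 47.8 in DKO, a log2 fold change of 1.42 (SE 0.36). Six4 (1.26), a homeobox factor of the fast program, and Mef2c (0.46), a MEF2 factor, followed. Many of these genes are also expressed outside muscle, and their source in skin was not tested.

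The other myosin II heavy chains, which do not serve skeletal sarcomeres as their main chains, were nearer to level. Of 6 genes, 4 had a positive log2 fold change, and the median was 0.09 (0.14 without DKO replicate 1). None passed in edgeR or DESeq2 or had an unadjusted p under 0.05. Myh7b (0.37), a slow-type relative, Myh11 (0.21), the smooth muscle chain, and Myh15 (0.16) had the smallest p-values. The nonmuscle chains Myh9 (0.01) and Myh10 (-0.02) were level.

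**Figure D4:**
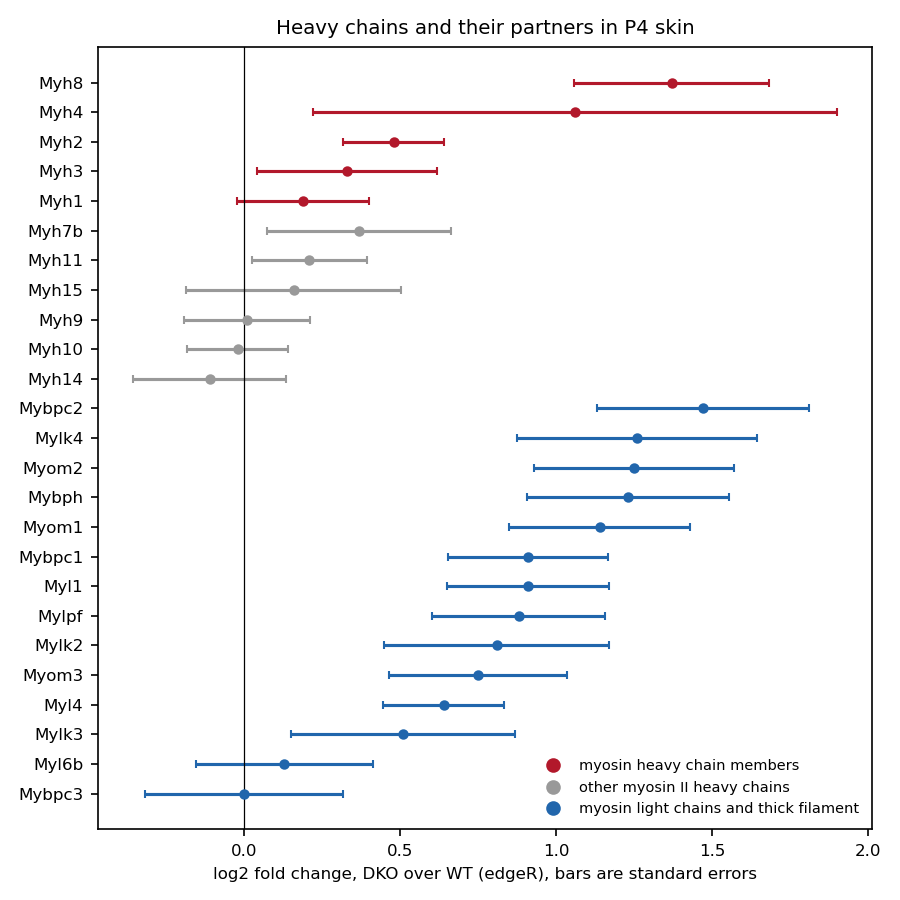
Log2 fold change of DKO over WT (x axis, edgeR, bars are 1 SE) for the 5 tested members, 6 other myosin II heavy chains and 14 thick filament partners. Myh8 at 1.37 lies among partners such as Mybpc2 at 1.47, while Myh1 at 0.19 lies among the other myosin II chains.

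Markers of heart muscle, which uses Myh6 and Myh7, and of smooth muscle were checked. The heart factors Gata4 and Nkx2-5 had 0 counts and at most 1 count in any library. Of 11 heart genes 5 were tested, and none passed in edgeR or DESeq2, while 3 had an unadjusted p under 0.05 (7.5% of all genes). These were Sln (1.96), a calcium pump regulator also made in developing skeletal muscle, Tnnt2 (-0.59), a troponin of heart and developing muscle, and Ryr2 (0.46), a calcium release channel. The summed level per kilobase of the heart list was 269.4 to 361.7 in WT and 399.0 to 1061.1 in DKO, most of it Actc1 and Sln. The 7 smooth muscle genes had a median of 0.06, and none passed in edgeR or DESeq2. The median was 0.03 without DKO replicate 1, -0.02 without WT replicate 2 and -0.08 without DKO replicate 2. An unadjusted p under 0.05 with DKO higher was found for 1, Smtn (0.53), against 4.96% of all genes. Myocd (0.30) and Tagln (-0.13) came next by p, and Acta2 (0.06), smooth muscle actin, and Actg2 (-0.08) were among the most abundant. Their summed level was 1727.1 to 1894.7 in WT and 1656.6 to 2674.4 in DKO.

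Of 8 genes of muscle precursors 6 were tested, all with a positive log2 fold change and a median of 0.85, and none passed in edgeR or DESeq2. Without DKO replicate 1 the median was 0.38 with 5 of 6 positive. An unadjusted p under 0.05 with DKO higher was reached by 3 (4.96% of all genes). These were Pax7 (1.25), the factor of satellite cells, Mymk (0.97), a membrane protein of myoblast fusion, and Myf6 (1.20), a myogenic factor of fibers. Myog (0.72) and Pax3 (0.29) were among the most abundant. The normalized count of Pax7 was 9.17, 9.34 and 12.8 in WT and 40.8, 21.0 and 14.9 in DKO. This DKO order was that of Myh8, but Mymk (28.9, 30.9 and 20.9) and Myf6 (130.1, 34.2 and 42.8) did not follow it. The 6 epidermal genes had a median of 0.43 (0.13 without DKO replicate 2, with 4 of 6 positive), and none passed in edgeR or DESeq2. An unadjusted p under 0.05 with DKO higher was found for 2 (4.96% of all genes). The summed level of the 6 was 40756.9 to 43288.3 in WT and 51484.4 to 70232.2 in DKO. The keratins Krt1 (0.79) and Krt10 (0.48) and the filaggrin gene Flg (0.30) had the smallest p-values. Of the basal keratins, Krt5 had 0.11 and Krt14 had 0.39, and the genotypes overlapped for both. The 6 fibroblast genes had a median of 0.24 with 1 unadjusted p under 0.05, with DKO higher (4.96% of all genes). The 6 adipocyte genes had a median of 0.13 with none (-0.29 without DKO replicate 1, with 0 of 6 positive). None of either list passed in edgeR or DESeq2. The collagens Col1a1 (0.40), Col3a1 (0.31) and Col1a2 (0.17) were the most abundant fibroblast genes and Pdgfra (0.43) had the smallest p, while Cidec (0.23), Plin1 (0.25) and Pparg (0.11) had the smallest p of the adipocyte genes and Fabp4 (-0.03), Adipoq (0.16) and Lpl (-0.07) were the most abundant. Of the 2 brown adipocyte genes Cidea was tested (-0.57, and -0.32 without DKO replicate 1). It did not pass in either tool or at an unadjusted p under 0.05. The part of tissue make-up in the differences between the chains was not tested.

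Over the 6 libraries the genes with the most similar pattern were looked up by Pearson r of log2 CPM. For Myh8 they were Pde4dip (0.9986), Nrap (0.9963) and Myom1 (0.9954), the latter 2 parts of the sarcomere. For the summed chains they were Naca (0.9981), Bicc1 (0.9966) and Ldb3 (0.9952). For Myh1 they were 2310039H08Rik (0.9937) and Ftl1 (0.993), for Myh2 Cog6 (0.994), Lifr (0.9905) and Npnt (0.9879), for Myh3 Tk2 (0.998), Gm44950 (0.9905) and Mir322 (0.9879), and for Myh4 Esam (0.9842), the unnamed ENSMUSG00000087594 (0.9828) and Pars2 (0.9687). These are descriptions over 6 libraries chosen from 20168 genes, and every r shares the depth and tissue make-up of the same libraries.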

How the data were processed

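Total RNA of P4 back skin was depleted of rRNA and sequenced as 150-base pairs by the authors. Per the labels and the study's methods, reads were trimmed with Trimmomatic 0.36, mapped to GRCm38 with STAR 2.5.2b and counted with featureCounts (Subread 1.5.2). The deposited values are counts per gene without normalization. Strand use and the handling of reads that map to several genes are not given in the sources used here, and both can shift reads between similar chains. Groups came from the labels. The 7 epidermis libraries hold 0 for every gene in the files used here and were not analysed. Symbols matched 48970 identifiers (99.3%).

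Counts were fitted in R 4.3.3 with edgeR 4.0.16 (TMM, filterByExpr, quasi-likelihood F test, Benjamini-Hochberg over 20168 genes, biological coefficient of variation 20%), with DESeq2 1.42.0 as the alternative. Thresholds were 0.05 for the adjusted p and 1 for the size of the log2 fold change. Both scripts were tested on simulated data. Levels per kilobase used the deposited exon lengths, and shares and sums were compared by exact permutation over libraries. Floors cover counting error only. The members and gene lists were chosen with earlier results of these data known. All members were named, with the 3 smallest p-values of a list (and the most abundant genes of other cell types) and the 3 most similar genes by Pearson r (log2 CPM, prior count 2), of which 1 is not reported here. Other genes named in the text (slow light chains, fast light chains, nonmuscle chains, Hsp90aa1, Krt14) were chosen after their values were seen. The ratios to other muscle genes were also chosen then.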

Additional observations from a re-analysis of the deposited data

How the results depend on the processing

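Myh8, Myh2 and Myh3 kept a positive log2 fold change under the 14 alternatives compared for single chains. The ranges were 0.76 to 1.59 for Myh8, 0.36 to 0.56 for Myh2 and 0.1 to 0.73 for Myh3. DESeq2 with a replicate left out is not among these 14. Myh1 turned to -0.11 without DKO replicate 2 and reached 0.38 without DKO replicate 3. Myh4 turned to -0.49 without DKO replicate 1, reached 2.17 without WT replicate 2 and turned to -0.96 in the 4 libraries that share one number. The developmental share difference ranged from 9.24 to 20.1 points and the adult fast from -20.0 to -9.16. The slow share turned from -0.0749 to 0.0087 points in those 4 libraries and to 0.0021 without WT replicate 3 (-0.119 without WT replicate 1), and the summed chains relative to other muscle genes turned from -0.18 to 0.01 with counts in place of counts per kilobase. The cause was not tested.

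Genes called numbered 14, and 154 with DESeq2 (98 higher, 56 lower), 22 with total counts (10 higher, 12 lower, against 8 and 6), 210 with no filter, 9 in the 4 libraries, 2 to 36 with a replicate left out (36 without DKO replicate 1, 33 without DKO replicate 2), and 65 to 205 with DESeq2 and a replicate left out (68, 65 and 73 without WT replicates 1 to 3, and 65, 205 and 171 without DKO replicates 1 to 3), an alternative added after seeing the data, as were the coding transcript length and the sum without Myh8. Members called numbered 0, and 1 (Myh8) with DESeq2 and with no filter, and 0 to 1 with DESeq2 and a replicate left out, 0 being without DKO replicate 1. Leaving out a replicate in edgeR called 0 members.

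A replicate block by the number shared in titles called 35 genes and 0 members, with Myh8 at 1.23. The labels do not say what the number marks. Deviations of log2 CPM from the mean of each genotype were correlated between WT and DKO libraries. Same-number pairs correlated at -0.019 to 0.23 and others at -0.152 to -0.104. Depth limited Myh6, Myh7 and Myh13 to a few counts, and 3 libraries a group cannot reach an exact p under 0.1.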
